A study of Danio rerio with 6 samples.

Results

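The adhesion genes cdh1 (ENSDARG00000102750), cdh2 (ENSDARG00000018693), epcam (ENSDARG00000040534) and fn1a (ENSDARG00000019815), whose transcripts are read as signs of an epithelial or a mesenchymal state, were examined in zebrafish neural crest (NC) cells with high and low Wnt responses. They were chosen by name, through their Ensembl identifiers, with earlier results of these data known. All 4 were found among the 32057 genes of the table. The cells came from 24 hpf embryos with a pair of transgenes. Tg(-7.2sox10:EGFP)ir937 marks NC cells with EGFP through a sox10 promoter fragment, and Tg(7XTCF:nls-mCherry)ia5 drives a nuclear mCherry from TCF sites in cells that respond to canonical Wnt signals. The cell sorting passage of the study's methods names the NC transgene as a membrane-bound form of EGFP. The labels, the study's Results and its list of fish lines name sox10:EGFP. EGFP+ cells were parted by FACS into mCherry+ (high-Wnt) and mCherry− (low-Wnt) populations, and both carried both transgenes and no other labelled allele or treatment. Each population has 3 bulk RNA libraries. Neither the labels nor the methods say whether these were separate batches of embryos, so p-values measure the spread between libraries only, which may be technical.

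Cadherins are calcium-dependent receptors that bind their own kind on the neighbouring cell. cdh1 encodes E-cadherin of epithelial junctions, and cdh2 encodes N-cadherin, which holds together neural and many mesenchymal tissues. The inner tail of both proteins binds beta-catenin, the protein that also carries canonical Wnt signals to the nucleus. epcam encodes the epithelial cell adhesion molecule, a membrane glycoprotein of epithelia, and fn1a encodes fibronectin, a matrix protein that migrating cells hold through integrins. NC cells leave the neuroepithelium by an epithelial-mesenchymal transition (EMT). General textbook accounts of EMT, which are not particular to NC cells, have E-cadherin and epcam falling while N-cadherin and fibronectin rise.

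The 6 libraries were deposited as TPM (transcript abundances scaled to a total of 1000000 in each library), which are corrected for transcript length, so that levels of different genes can be set side by side, and which keep no sequencing depth. The 3 high-Wnt libraries had 14283 to 14417 genes at 1 TPM or more, low-Wnt replicates 1 and 2 had 13791 and 13481, and low-Wnt replicate 3 had 9230. Values of a population are listed in the order of replicates 1, 2 and 3. Across tested genes, log2(TPM + 1) in low-Wnt replicate 3 was lower than in low-Wnt replicates 1 and 2 with a median difference of -1.19. Because this library stands apart, the fits, ratios, list counts and profile distances are given with and without it. NC markers were detected in every library, but their levels in low-Wnt replicate 3 were mixed. In that library tfap2a had 12.6, crestin 4.51, tfap2b 0.56 and ets1 55.0 TPM, each below low-Wnt replicates 1 and 2. twist1a had 335.6 TPM there and was above them. sox10, the gene whose promoter marks the cells, had 243.7 to 342.7 TPM in high-Wnt cells, against 258.6, 239.6 and 72.9 TPM in low-Wnt cells, and foxd3, an NC specifier, had 122.0 to 136.1 TPM and 82.0, 96.6 and 29.4 TPM.

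The comparison of high-Wnt with low-Wnt cells addresses whether NC cells with a strong Wnt response differ in epithelial or mesenchymal character. Both cadherins were more abundant in high-Wnt cells, epcam had nearly the same level in both populations, and fn1a was low and variable. The mean TPM of cdh1 was 2.24 times as high in high-Wnt cells, and that of cdh2 2.28 times. Against low-Wnt replicates 1 and 2 alone, the folds were 1.65 for cdh1 and 1.57 for cdh2. With all 6 libraries, 0 of the 4 genes passed the test across all genes, where 0.367% of all tested genes did. Without low-Wnt replicate 3 cdh1 and cdh2 passed it, where 12.7% of all tested genes did. Neither passed when the replicate number was added to that fit as a block (limma adjusted p = 0.123 and 0.158). When all 6 libraries were kept but each was weighted by an estimate of its quality, cdh1, cdh2 and fn1a passed. So did 4128 of the 14163 tested genes in that weighted fit.

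cdh1 had 44.7, 49.7 and 44.5 TPM in high-Wnt cells, against 25.0, 30.9 and 6.09 TPM in low-Wnt cells. Every high-Wnt library was above every low-Wnt library, and low-Wnt replicate 3 was the lowest by far. The means were 46.3 ± 2.93 TPM (SD, n = 3) and 20.7 ± 13.0 TPM (SD, n = 3). Low-Wnt replicates 1 and 2 averaged 4.60 times the level of low-Wnt replicate 3, so most of the low-Wnt spread came from that library. The log2 fold change of cdh1 on the log2(TPM + 1) scale was 1.39 with a standard error of 0.58 (95% interval 0.06 to 2.72, limma adjusted p = 0.335). Without low-Wnt replicate 3 it was 0.71 with a standard error of 0.16 (95% interval 0.35 to 1.07, limma adjusted p = 0.026), so the estimate was smaller and its error smaller still.

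cdh2 had 38.4, 37.3 and 33.5 TPM in high-Wnt cells, against 25.7, 20.6 and 1.62 TPM in low-Wnt cells. As for cdh1, the populations did not overlap. The means were 36.4 ± 2.57 TPM (SD, n = 3) and 15.9 ± 12.7 TPM (SD, n = 3). Of the 4 genes, cdh2 was reduced the most in low-Wnt replicate 3, with a log2(TPM + 1) difference of -3.19 from the mean of low-Wnt replicates 1 and 2, a lower difference than that of all but 4.46% of the tested genes. The log2 fold change of cdh2 was 1.70 with a standard error of 0.83 (95% interval -0.20 to 3.60, limma adjusted p = 0.398). Without low-Wnt replicate 3 it was 0.64 with a standard error of 0.16 (95% interval 0.26 to 1.02, limma adjusted p = 0.042). The E-cadherin and N-cadherin transcripts were thus both higher in the same population, in each of these fits.

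epcam was the most abundant of the 4 genes in every library. It had 154.1, 162.1 and 166.1 TPM in high-Wnt cells, against 136.2, 168.6 and 140.9 TPM in low-Wnt cells. The populations overlapped, since the highest value belonged to low-Wnt replicate 2. The means were 160.7 ± 6.15 TPM (SD, n = 3) and 148.6 ± 17.5 TPM (SD, n = 3). Unlike the cadherins, epcam kept its level in low-Wnt replicate 3, with a log2(TPM + 1) difference of -0.11 from the other low-Wnt libraries, where 79.7% of the tested genes were reduced more. Its log2 fold change was 0.12 with a standard error of 0.25 (95% interval -0.45 to 0.69, limma adjusted p = 0.804), and 0.08 with a standard error of 0.13 (95% interval -0.23 to 0.40, limma adjusted p = 0.709) without low-Wnt replicate 3. That last interval leaves room for a difference of up to 0.40 on this scale.

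fn1a was the least abundant of the 4 genes in every library. It had 8.46, 5.38 and 5.05 TPM in high-Wnt cells, against 5.98, 1.88 and 0.51 TPM in low-Wnt cells. The populations overlapped through low-Wnt replicate 1, which was above high-Wnt replicates 2 and 3. The means were 6.30 ± 1.88 TPM (SD, n = 3) and 2.79 ± 2.85 TPM (SD, n = 3). Its log2 fold change was 1.20 with a standard error of 0.62 (95% interval -0.23 to 2.63, limma adjusted p = 0.424), and 0.67 with a standard error of 0.40 (95% interval -0.26 to 1.61, limma adjusted p = 0.296) without low-Wnt replicate 3. The interval without that library was wider for fn1a than for the other 3 genes and included both no difference and the size seen for cdh1 and cdh2.

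**Figure D1:**
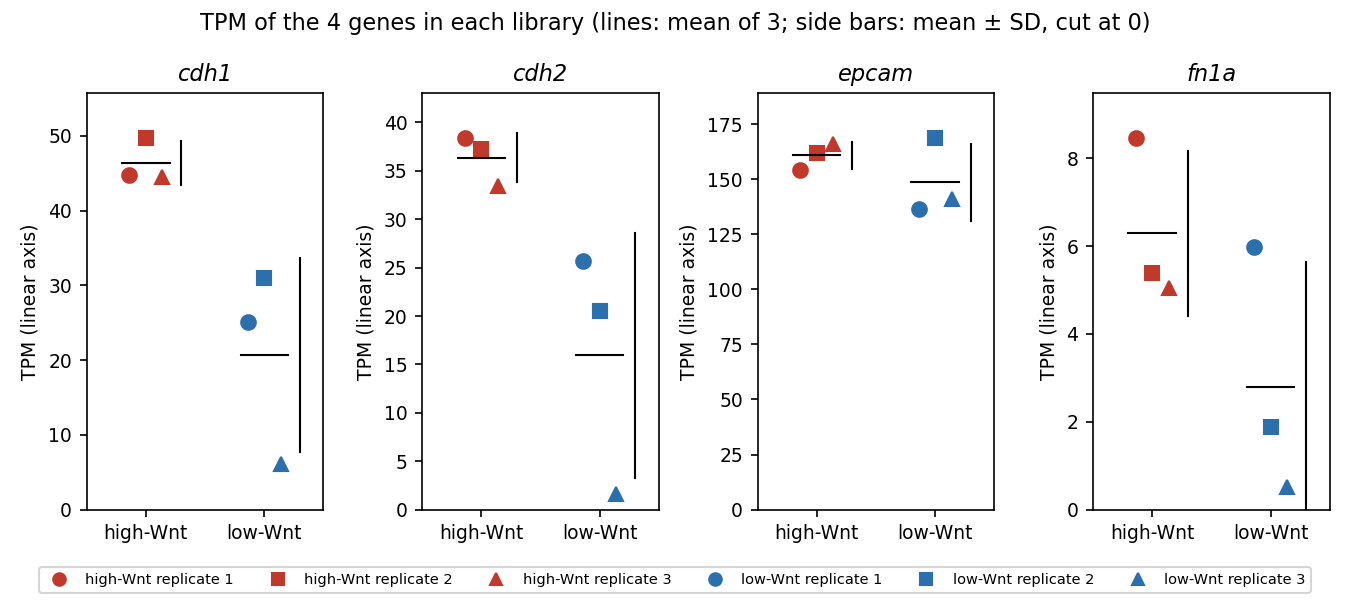
TPM of cdh1, cdh2, epcam and fn1a (linear axes from 0) in the 3 high-Wnt (red) and 3 low-Wnt (blue) libraries, with the mean of each population as a line and ± SD as a side bar. The populations are apart for cdh1 and cdh2 and overlap for epcam and fn1a, and low-Wnt replicate 3 is the lowest library for cdh1, cdh2 and fn1a but not for epcam.

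The counts of called genes among the 4 were read against those over all genes. With all 6 libraries, 0 of 4 genes were called where 52 of 14163 tested genes were (0.367%), of which 37 were higher and 15 lower in high-Wnt cells. That split was 92 higher and 85 lower after quantile normalization and 11 higher and 35 lower after centring each library on its median. Of the 4 genes, 1 (cdh1) had an unadjusted p-value under 0.05 in the limma fit, as had 2008 of the 14163 tested genes, so this was not unusual. The populations did not overlap, with high-Wnt above, for 2 of the 4 genes and for 22.4% of all tested genes. In the fit without low-Wnt replicate 3, 2 of 4 genes were called, both higher in high-Wnt cells, where 7.17% of the 15000 tested genes were called higher and 12.7% were called in either direction. All 4 genes passed the filter on low TPM in both fits. An exact permutation test on each gene alone (two-sided) gave p = 0.1 for cdh1 and cdh2, the smallest that 3 libraries against 3 allow, 0.4 for epcam and 0.3 for fn1a. Without low-Wnt replicate 3 this permutation test gave p = 0.2 for cdh1 and cdh2, 0.8 for epcam and 0.6 for fn1a. The smallest p that 3 libraries against 2 allow is 0.2.

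The scaling between libraries changed the size of these differences. Over all tested genes the log2 fold change had a median of 0.51 with all 6 libraries and 0.05 without low-Wnt replicate 3. Relative to that median, the log2 fold changes were 0.87 for cdh1, 1.19 for cdh2, -0.39 for epcam and 0.68 for fn1a with all 6 libraries. When low-Wnt replicate 3 was left out, they were 0.66, 0.59, 0.03 and 0.62 in the same order. The direction of epcam therefore depended on the scaling, and it was -0.48 (limma adjusted p = 0.678) after centring each library on its median. cdh1 lay above 92.7% and cdh2 above 97.1% of the tested genes in log2 fold change with all 6 libraries, and above 84.8% and 82.0% without low-Wnt replicate 3. fn1a lay above 88.0% and 83.3% and epcam above 27.3% and 52.3%.

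**Figure D2:**
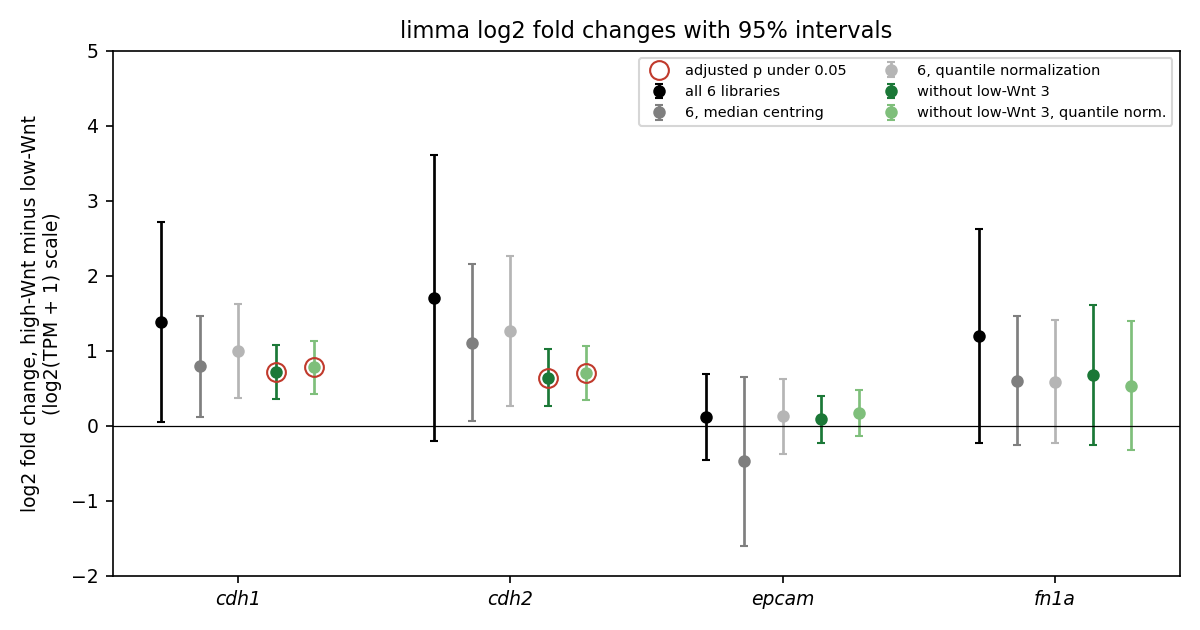
limma log2 fold changes of the 4 genes (high-Wnt minus low-Wnt, log2(TPM + 1) scale) with 95% intervals, for 3 scalings of all 6 libraries (black and grey) and for 2 fits without low-Wnt replicate 3 (green). Red rings mark the adjusted p-values under 0.05, which only cdh1 and cdh2 without low-Wnt replicate 3 reach among these fits.

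The rank of a gene within its own library does not depend on the scaling. cdh1 lay above 92.5% to 92.9% of all listed genes in high-Wnt cells, against 87.8%, 89.7% and 86.1% in low-Wnt cells. cdh2 lay above 90.7% to 91.6% in high-Wnt cells, against 88.0%, 86.5% and 75.8% in low-Wnt cells. Both cadherins thus ranked higher in each high-Wnt library than in any low-Wnt library. The share of all genes whose ranks separate in this way was not computed, and in TPM it was 22.4% of the tested genes. epcam lay above 97.0% to 97.7% of the genes in all 6 libraries. The ranks of fn1a overlapped, above 77.2%, 71.9% and 71.9% in high-Wnt cells, against 74.0%, 63.4% and 64.6% in low-Wnt cells. The order of levels was epcam, cdh1, cdh2 and fn1a in 5 of 6 libraries, and in low-Wnt replicate 1 cdh1 and cdh2 were nearly equal with cdh2 the higher.

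Ratios between 2 of the genes within a library are also free of the scaling, and they compare the genes directly. The ratio of cdh1 to cdh2 was 1.16, 1.33 and 1.33 in high-Wnt cells, against 0.98, 1.51 and 3.76 in low-Wnt cells. The low-Wnt values enclosed the high-Wnt values. On the log2 scale the populations differed by -0.47 in this ratio (two-sided exact permutation test, p = 0.7), and by 0.07 without low-Wnt replicate 3.

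The ratio of each cadherin to epcam did not overlap between the populations. The share of all genes with such a ratio to epcam was not computed. In log2 fold change epcam lay above only 27.3% of the tested genes with all 6 libraries, and above 52.3% without low-Wnt replicate 3. A higher mean ratio to epcam in high-Wnt cells is therefore not particular to the cadherins. The ratio of cdh1 to epcam was 0.290, 0.307 and 0.268 in high-Wnt cells, against 0.184, 0.183 and 0.043 in low-Wnt cells. That of cdh2 to epcam was 0.249, 0.230 and 0.201 in high-Wnt cells, against 0.188, 0.122 and 0.012 in low-Wnt cells. Both ratios were higher in every high-Wnt library, also against low-Wnt replicates 1 and 2 alone. The log2 differences were 1.34 for cdh1 and 1.82 for cdh2 (two-sided exact permutation test, p = 0.1 for each, 0.3 after Benjamini-Hochberg adjustment over the 6 pairs), and 0.65 and 0.58 without low-Wnt replicate 3. With 3 libraries against 3 the test cannot reach a lower p than 0.1, so neither difference passes a threshold of 0.05. Without low-Wnt replicate 3 the same exact permutation test gave p = 0.2 for each, the smallest that 3 libraries against 2 allow. The ratios with fn1a overlapped between the populations for each partner, with log2 differences of -0.31 for cdh1 (p = 0.6), 0.16 for cdh2 (p = 0.9) and -1.66 for epcam (p = 0.3) by the same exact permutation test. These differences were -0.14, -0.21 and -0.79 without low-Wnt replicate 3, in the same order, so that the sign for cdh2 turned and the difference for epcam was smaller in size.

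**Figure D3:**
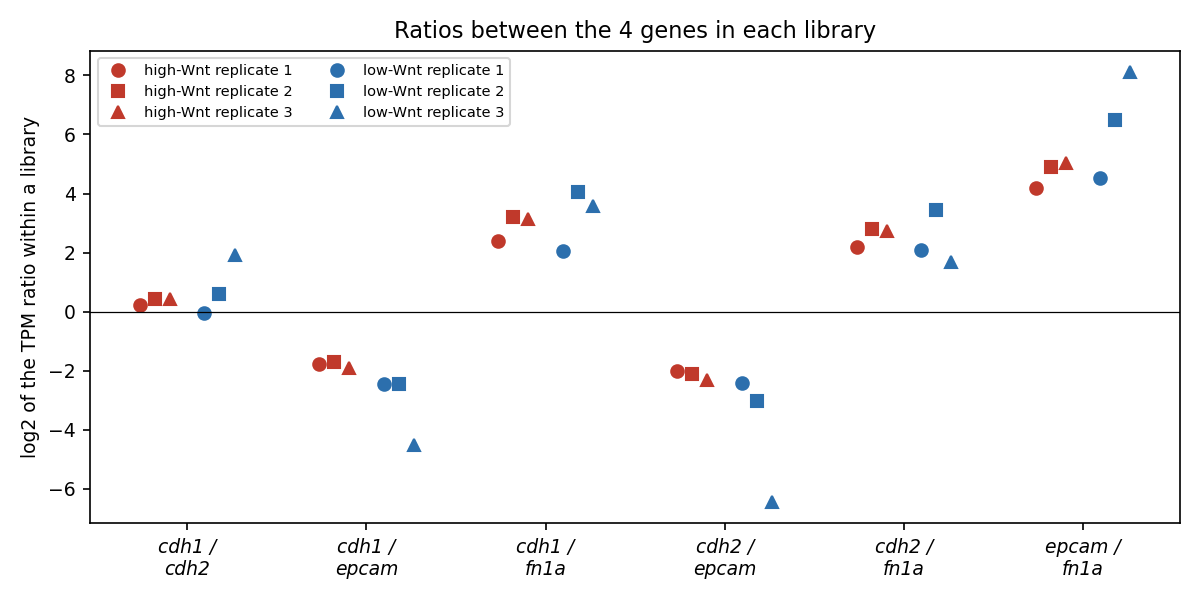
log2 of the TPM ratio of 2 genes within each library, for the 6 pairs (high-Wnt red, low-Wnt blue). The high-Wnt libraries lie above the low-Wnt libraries for cdh1 to epcam and cdh2 to epcam, and the populations overlap for the other 4 pairs.

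Other adhesion and EMT genes were read from lists of symbols that a gene name table paired with identifiers. These lists were chosen with earlier results of these data known, so a comparison with all genes describes them and is not a test. Their counts are read against the shares over all tested genes, which were 0.261% called higher and 0.367% called in either direction with all 6 libraries, and 7.17% called higher, 5.57% called lower and 12.7% called in either direction without low-Wnt replicate 3. The median log2 fold changes over all tested genes were 0.51 and 0.05 in these fits. Of the other cadherins and the catenins that link them to actin or to Wnt signals, 11 of 16 symbols matched and 9 were tested. With all 6 libraries, 0 of 9 were called, with a median log2 fold change of 1.11. In the fit without low-Wnt replicate 3, 0 of 9 were called higher (7.17% of all tested genes) and 1 of 9 lower (5.57%), with a median of 0.23, so the count was near the background. The 1 called gene was cdh6, a cadherin of migrating NC and kidney, with 65.9, 57.8 and 53.7 TPM in high-Wnt cells, against 95.2, 80.7 and 10.0 TPM in low-Wnt cells. Without low-Wnt replicate 3 its log2 fold change was -0.56 with a standard error of 0.15 (limma adjusted p = 0.047), opposite in sign to cdh1 and cdh2, and with all 6 libraries it was 0.44 (limma adjusted p = 0.766). cdh11, a cadherin of mesenchyme, had a log2 fold change of 0.53 (limma adjusted p = 0.069) without low-Wnt replicate 3. ctnnb1, which encodes beta-catenin, had -0.09 (limma adjusted p = 0.740) in the same fit. The TPM of the 11 matched genes summed to 706.6 to 934.1 in high-Wnt cells, against 806.0, 826.7 and 61.7 in low-Wnt cells, the last being the library in which both cadherins were lowest. The largest part of this sum in each library was ctnnb1. It had 552.8, 431.7 and 392.7 TPM in high-Wnt cells, against 457.9, 511.1 and 28.7 TPM in low-Wnt cells.

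Among 27 epithelial symbols (keratins, claudins, junction proteins and their regulators), 24 matched. With all 6 libraries, 0 of 22 tested genes were called, with a median log2 fold change of 0.79. When low-Wnt replicate 3 was left out, 4 of 23 were called higher (7.17% of all tested genes), 1 lower (5.57%) and 18 were not called, with a median of 0.17. The 4 were the keratins krt4 (log2 fold change 1.50) and krt5 (3.07), the claudin cldne (2.36) and the periplakin gene ppl (1.98), with limma adjusted p-values of 0.0028, 0.0074, 0.0023 and 0.010. ppl had 2.24, 4.04 and 4.14 TPM in high-Wnt cells, against 0.16, 0.06 and 0.30 TPM in low-Wnt cells. It thus passed the filter on low TPM through high-Wnt libraries only. The gene called lower was tp63 (log2 fold change -0.71, limma adjusted p = 0.028), which encodes a transcription factor of basal epidermis. The keratins of simple epithelia krt8 and krt18a.1 had log2 fold changes of 0.18 (limma adjusted p = 0.328) and 0.01 (limma adjusted p = 0.962).

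Among 22 mesenchymal and EMT symbols, 15 matched, by 17 identifiers. With all 6 libraries, 0 of 15 tested genes were called, with a median log2 fold change of 1.01. In the fit on 5 libraries, without low-Wnt replicate 3, 6 of 15 were called higher (7.17% of all tested genes) and 2 lower (5.57%), with a median of 0.44. Those called higher were vim, the intermediate filament of mesenchyme (log2 fold change 1.33), the repressor of E-cadherin snai1a (1.11), twist1a (0.89), twist1b (1.41), the repressor zeb2a (0.56) and the collagen col1a1a (0.81), with limma adjusted p-values of 0.010, 0.016, 0.013, 0.0092, 0.024 and 0.036. Those called lower were snai2, another such repressor (-0.85, limma adjusted p = 0.030), and mmp2, a matrix metalloprotease (-1.68, limma adjusted p = 0.00056). Of the 5 matched snai and zeb genes, known in vertebrates as repressors of the E-cadherin gene, 2 were thus called higher and 1 lower, and snai1b (-0.22, limma adjusted p = 0.640) and zeb1a (0.60, limma adjusted p = 0.226) were not called. In the list of fibronectin and integrin genes, 5 of 9 symbols matched, all of them alpha integrin subunits. The other fibronectin gene fn1b and the beta integrin subunits did not match, so their levels were not read. Of the matched genes, 0 of 5 were called in either fit, with a median log2 fold change of 0.68 with all 6 libraries and -0.17 without low-Wnt replicate 3. itga5, a fibronectin receptor subunit, had -0.61 (limma adjusted p = 0.091).

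Genes of lists that mark other tissues also differed between the populations. These lists too were chosen with earlier results of these data known, so their counts are descriptive. The neural tube list is not exclusive to that tissue, since the paper uses neurog1 to mark neural progenitors among the NC cells. Of 10 matched epidermis and periderm markers, 4 are also in the epithelial list. With all 6 libraries, 3 of the 10 were called higher (icn2, agr1 and krt17), where 0.261% of all tested genes were. The median log2 fold change of the list was 2.22. krt17 had 0.62, 2.23 and 0.90 TPM in low-Wnt cells, so it passed the filter on low TPM mainly through high-Wnt libraries. Without low-Wnt replicate 3, 9 of 10 were called higher (7.17% of all tested genes) and 1 (tp63) lower (5.57%), with a median of 2.16. Their summed TPM was 2461 to 2868 in high-Wnt cells, against 782.1, 921.8 and 1303 in low-Wnt cells, and none of the 10 was at 0 in any library. This sum, like cdh1 and 22.4% of all tested genes, was higher in each high-Wnt library than in any low-Wnt library. Among the low-Wnt libraries, however, the sum was highest in replicate 3, where cdh1 was lowest. The largest part of the sum in low-Wnt replicate 3 came from icn, with 720.9 TPM. In a sum chosen after seeing the data, over the other 9 genes, the low-Wnt libraries had 603.9, 801.2 and 582.3 TPM, against 2152 to 2540 TPM in high-Wnt cells. Among the low-Wnt libraries 4 of the 10 genes (krt4, krt5, icn2 and tp63) were lowest in replicate 3, as cdh1 was. By contrast icn, cyt1, cyt1l, agr1 and cldne were highest there, and krt17 lay between. In low-Wnt cells krt4 had 291.5, 386.3 and 52.6 TPM, and cyt1l had 138.0, 188.0 and 282.1 TPM. The order of the low-Wnt sums thus depended on which genes were included. Of the neural tube markers, 7 of 10 tested genes were called higher without low-Wnt replicate 3 (7.17% of all tested genes; median log2 fold change 1.21) and 0 of 9 with all 6 libraries (0.261%; median 1.56), and sox2 among them had 34.4 to 37.2 TPM in high-Wnt cells, against 10.7, 11.1 and 3.01 TPM in low-Wnt cells. Their summed TPM was 275.3 to 305.9 in high-Wnt cells, against 115.7, 127.3 and 97.8 in low-Wnt cells. It was thus higher in each high-Wnt library than in any low-Wnt library, as was cdh2. The sums of the epithelial, the mesenchymal and EMT, and the NC lists separated in the same way. Those of the cadherin and catenin list and of the integrin list did not. In low-Wnt replicate 3 the neural tube sum was only somewhat lower, whereas cdh2 had 25.7, 20.6 and 1.62 TPM in low-Wnt cells. The NC markers themselves had 3 of 7 called higher without low-Wnt replicate 3 (foxd3, tfap2a and twist1a), where 7.17% of all tested genes were. With all 6 libraries, 0 of 7 were called higher, where 0.261% were. The median log2 fold changes of the NC list were 0.53 and 1.05 in these fits. Its summed TPM was 993.9 to 1205 in high-Wnt cells, against 769.4, 737.6 and 510.5 in low-Wnt cells. In low-Wnt replicate 3, 335.6 of the 510.5 TPM came from twist1a, which is also counted in the mesenchymal and EMT list. Each other matched NC marker was at its lowest low-Wnt level in that library. The part of epidermal or neural cells in the cadherin values was not tested, and in bulk samples fewer cells of a type and less RNA per cell cannot be told apart.

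**Figure D4:**
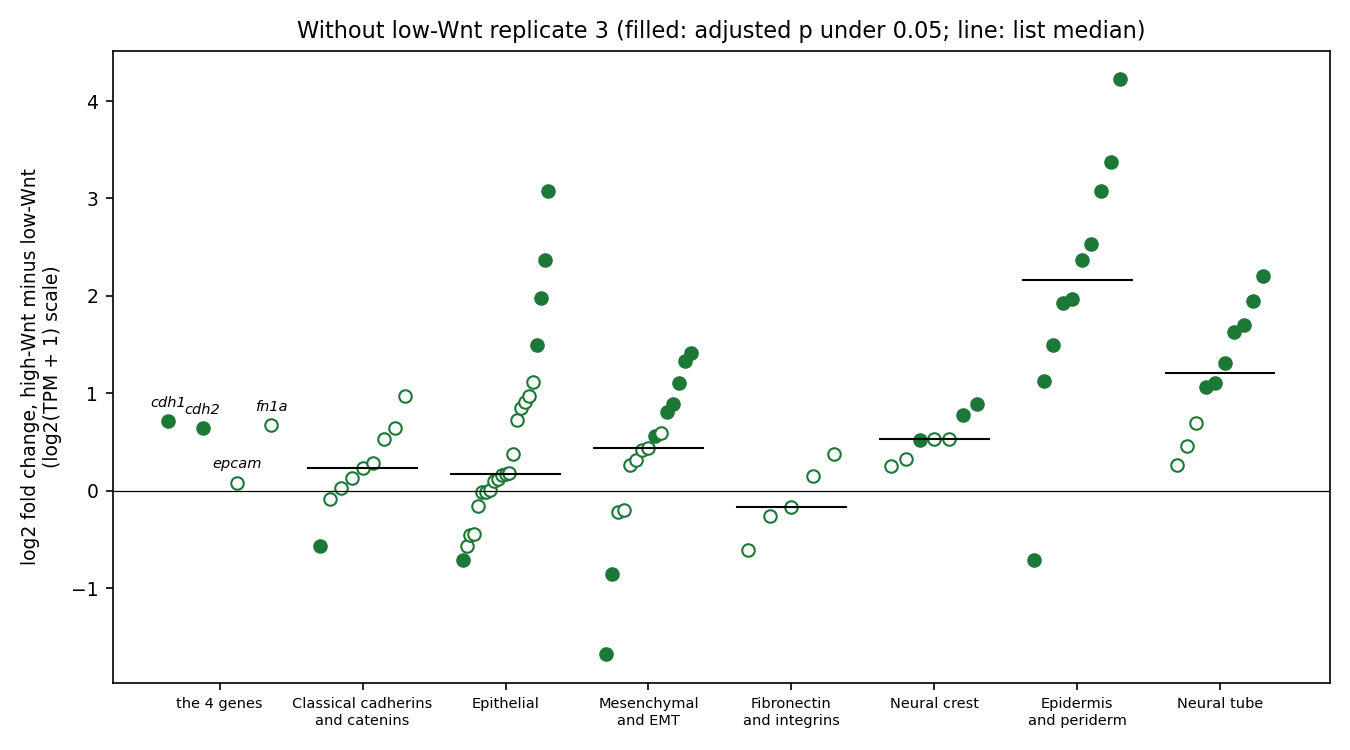
log2 fold changes (high-Wnt minus low-Wnt, log2(TPM + 1) scale) without low-Wnt replicate 3 for the 4 genes and for the tested genes of 7 lists, ordered by value within a list. Filled circles have an adjusted p-value under 0.05 and lines are list medians, from -0.17 for fibronectin partners and integrins to 2.16 for epidermis and periderm.

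For each of the 4 genes, the gene with the most similar profile was sought by the Euclidean distance between log2(TPM + 1) values over the 6 libraries, each centred on its mean, among 8652 tested genes with a mean of at least 5 TPM. The nearest to cdh1 was SP4 (distance 0.09), a zinc finger transcription factor with 12.6, 13.7 and 12.6 TPM in high-Wnt cells, against 6.29, 8.51 and 1.03 TPM in low-Wnt cells. The nearest to cdh2 was hapln1a (distance 0.21), a link protein of the hyaluronan matrix, at 26.0 to 29.1 TPM in high-Wnt cells, against 16.5, 15.4 and 1.03 TPM in low-Wnt cells. Both genes, like cdh1 and cdh2, had their lowest level in low-Wnt replicate 3. The nearest to epcam was GPR143 (distance 0.13), a receptor of melanosomes, at 244.3 to 300.4 TPM over the 6 libraries, and the nearest to fn1a was PIGU (distance 0.34), part of the enzyme that attaches glycolipid anchors to proteins. By the same measure cdh1 lay 1.13 from cdh2, 1.32 from fn1a and 2.21 from epcam. The distances depended on low-Wnt replicate 3. Over the other 5 libraries, an alternative chosen after seeing the data with 9131 genes compared, cdh1 lay 0.46 from cdh2, 0.70 from epcam and 1.24 from fn1a, so that cdh2 was the nearest of the 3 both times and epcam and fn1a changed places. The nearest genes became IFT22 for cdh1 (distance 0.05), LMNB2 for cdh2 (0.07), RPL19 for epcam (0.05) and shrprbck1r for fn1a (0.16), and of the genes nearest over 6 libraries SP4 was then number 2 for cdh1, PIGU number 11 for fn1a, GPR143 number 32 for epcam and hapln1a number 43 for cdh2.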

How the data were processed

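The authors made Smart-seq2 libraries, mapped reads to GRCz11 with STAR, quantified genes with RSEM and deposited TPM values, rounded to 2 decimals. They tested with edgeR, which needs counts, so that test was not repeated. Here log2(TPM + 1) was fitted with limma 3.58.1 in R 4.3.3 (population only, intensity trend), across all genes with 1 TPM or more in 3 libraries (2 where a low-Wnt or high-Wnt library was left out), with Benjamini-Hochberg adjustment and calls at 0.05. Single values were compared by exact permutation tests (scipy 1.17.1). The procedure was tested on simulated data. TPM keeps no depth, so counting error is unknown. Symbols were available for 28988 of 32057 identifiers; lists were matched by exact symbol regardless of case. The table lists cdh2 and fn1a as CDH2 and FN1. Named genes were the 4 genes, the nearest profile of each and members of the lists. Sequences and coordinates were not used here. Members and lists were chosen with earlier results of these data known. The alternatives (pseudocount, filters, scalings, variance model, weights, replicate block, each library left out) are given in the closing section. Profile distances without low-Wnt replicate 3 and the epidermal sum without its most abundant gene there were added after seeing the data.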

Additional observations from a re-analysis of the deposited data

How the results depend on the processing

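All 6 libraries gave 52 DE genes. The number was 17 with a pseudocount of 0.1, 4 with no filter, 13 with a mean of at least 5 TPM, 13 without a variance trend, 177 with quantile normalization, 4128 with sample quality weights and 168 with the replicate block, and 0 to 1912 in fits without one library. Without low-Wnt replicate 3, which gave the 1912, quantile normalization gave 1838 and median centring 2146. The other 2 alternatives stayed within 1.5 times.

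The log2 fold change of cdh1 was 0.67 (limma adjusted p = 0.017), of cdh2 0.75 (0.017) and of fn1a 0.94 (0.028) with sample quality weights, all past the threshold. That fit called 4128 of the 14163 tested genes. In fits without one library the log2 fold change ranged from 0.71 to 1.80 for cdh1 and from 0.64 to 2.31 for cdh2. Without low-Wnt replicate 3, cdh1 (0.71) and cdh2 (0.64) were past the threshold, also with quantile normalization (0.78 and 0.70) and median centring (0.65 and 0.58). In the same order, these fits called 1912, 1838 and 2146 of the 15000 tested genes. Over all alternatives adjusted p-values ran from 0.017 to 0.840 for both cadherins, from 0.446 to 0.962 for epcam and from 0.028 to 0.840 for fn1a. No alternative reversed cdh1, cdh2 or fn1a. epcam reversed with median centring (-0.48), by construction of the scaling. fn1a has no value with a mean of at least 5 TPM, which it did not reach.

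Without one library the log2 ratio differences ranged from -0.90 to 0.072 for cdh1 to cdh2, from -0.89 to 0.094 for cdh1 to fn1a and from -0.21 to 0.68 for cdh2 to fn1a, each with 1 reversal. The other 3 pairs kept their direction.

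Deviations of same-numbered libraries correlated at 0.03, -0.01 and 0.14, and those of differently numbered libraries at -0.11 to 0.09. The numbers were therefore not taken as pairs. The deviations were taken from the mean of each population, which low-Wnt replicate 3 shifts, so this check cannot exclude pairing. With the replicate block and all 6 libraries, adjusted p was 0.285 for cdh1 and 0.257 for cdh2. With the block and without low-Wnt replicate 3, cdh1 was 0.74 (0.123) and cdh2 0.70 (0.158), and 489 genes were DE. The causes of these changes were not tested.

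Only 2 low-Wnt libraries remain without replicate 3, which was set aside because of its values, so that fit does not replace the one on all 6.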

Other observations

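Markers of tissues further from the NC gave mixed directions without low-Wnt replicate 3. Of 5 matched blood genes, 3 were called higher in high-Wnt cells (alas2, hbbe3 and hbae3), where 7.17% of all tested genes were, and their summed TPM was 561.0 to 684.8 in the high-Wnt libraries and 317.8, 360.2 and 651.9 in low-Wnt replicates 1, 2 and 3. Of 4 tested mesoderm and heart genes, 1 (myf5) was called higher, where 7.17% of all tested genes were. myf5 had 1.71, 1.31 and 1.19 TPM in the high-Wnt libraries and 0, 0 and 0.51 TPM in low-Wnt replicates 1, 2 and 3. In the same order, alas2 had 3.06, 5.07 and 4.05 TPM, and 0.96, 0.21 and 0.06 TPM. Neither reached 1 TPM in any low-Wnt library, so both passed the filter on low TPM through high-Wnt libraries only. The single tested endothelial gene, tal1, was called lower, where 5.57% of all tested genes were (log2 fold change -1.46, limma adjusted p = 0.012), at 2.53 to 3.00 TPM in the high-Wnt libraries and 7.96, 11.1 and 1.24 TPM in low-Wnt replicates 1, 2 and 3. Of the endoderm markers, sox17 and sox32 were listed at 0 in all 6 libraries. Of the 2 tested endoderm genes 0 were called, where 12.7% of all tested genes were called in either direction. With all 6 libraries, 0 genes of these 4 lists were called, where 0.367% of all tested genes were, so a count of 0 says little.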
